A study of Mus musculus with 2 samples.

Results

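The 10 genes described here encode 5 class 3 semaphorins (Sema3a, Sema3c, Sema3d, Sema3e and Sema3f), both neuropilins (Nrp1 and Nrp2) and 3 plexins (Plxna2, Plxna4 and Plxnd1). They were taken by name out of 28692 genes in the matrices. They were followed over every barcode with at least 8000 UMIs and at most 20% mitochondrial UMIs in 2 libraries, 1 dorsal and 1 ventral, of cells grown from the cardiac base of newborn mice. Both groups came from 3-day-old C57Bl6 mice, males and females together, with no treatment or engineered allele named in the labels. Tissue of 15 hearts was split into 2 pools. The dorsal pool took in the pulmonary veins, the cardiac ganglia and the sinoatrial node, and the ventral pool the outflow tract base together with the pulmonary artery and proximal aorta. The cells of each pool were grown as adherent cultures for 5 days before capture, so the libraries hold cells that attach and survive in culture. Each domain was 1 library, so there were no biological replicates and no test between domains.

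Class 3 semaphorins are secreted guidance proteins that steer axons, migrating neural crest cells and growing vessels. Most of them bind a neuropilin, which has no enzymatic domain of its own and hands the signal to an A-type plexin or to plexin D1. Sema3E differs in that it can bind plexin D1 directly. In the heart, Sema3C, neuropilin 1, plexin A2 and plexin D1 are known for the migration of neural crest cells into the outflow tract, Sema3A for sympathetic innervation and Sema3D for the pulmonary veins. Neuropilins also bind VEGF family ligands in blood and lymphatic endothelium.

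The dorsal library had 8926 cells with a median of 22774 UMIs, and the ventral library had 10649 cells with a median of 21462 UMIs. Only 22 cell barcodes were found in both. Clusters were built without any semaphorin, neuropilin or plexin gene and named from marker lists. They gave 6287 dorsal and 7249 ventral fibroblast-like cells, 870 and 1073 mural-like cells (smooth muscle and pericyte markers), 437 and 184 glial-like cells, 98 and 131 endothelial-like cells, 120 and 91 macrophage-like cells and 38 and 29 cardiomyocyte-like cells. Mesothelial-like cells numbered 12 and 1086, and 37 skeletal muscle-like cells were dorsal. The remaining 1027 dorsal and 806 ventral cells stayed unnamed. No cluster was named neuronal: the summed level of 8 neuron markers was 6.67 and 7.08 CPM in the libraries, although the dorsal dissection took in the cardiac ganglia. Levels are UMIs of a gene per 1000000 UMIs of the cells summed (CPM). A range in parentheses after a CPM is its exact Poisson 95% interval, and after a log2 ratio the exact conditional binomial one. All intervals cover counting error only. Orders of classes cover those with at least 20 cells. Levels of different genes were not compared, since UMIs taken near the 3' end depend on each transcript's last part.

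In mouse, 4 of the 5 ligand genes lie on chromosome 5. On GRCm38 (GENCODE M21), Sema3d spans chr5:12383385-12588948, Sema3a chr5:13125414-13602565, Sema3e chr5:14025276-14256689 and Sema3c chr5:17574281-17730268, all on the plus strand. Sema3f is at chr9:107681500-107710475 on the minus strand. The receptor genes are spread out, with Nrp1 at chr8:128358604-128503363 and Nrp2 at chr1:62703285-62818695. Plxna2 lies at chr1:194618218-194816869, Plxna4 at chr6:32144268-32588192 and Plxnd1 at chr6:115954811-115995005, the last 2 on the minus strand. RefSeq promoter windows (GRCm38.p6) were at hand for 8 of the 10 genes, leaving Sema3f and Plxna4 without one. The sequences below belong to the ligand Sema3e, to its receptor Plxnd1 and to Nrp2, the member with the largest difference between the pooled libraries. Each is the stretch just upstream of the annotated gene, read 5′ to 3′ on the gene's strand: chr5:14025026-14025275 for Sema3e, chr6:115995006-115995255 for Plxnd1 and chr1:62703067-62703284 for Nrp2. Capitals mark the GC box letters GGGCGG or, on the other strand, CCGCCC.
Sema3e: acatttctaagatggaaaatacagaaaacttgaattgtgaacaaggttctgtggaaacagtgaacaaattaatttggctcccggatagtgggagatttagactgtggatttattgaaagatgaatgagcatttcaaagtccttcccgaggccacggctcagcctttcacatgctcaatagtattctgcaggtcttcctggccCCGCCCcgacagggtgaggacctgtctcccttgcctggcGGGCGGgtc
Plxnd1: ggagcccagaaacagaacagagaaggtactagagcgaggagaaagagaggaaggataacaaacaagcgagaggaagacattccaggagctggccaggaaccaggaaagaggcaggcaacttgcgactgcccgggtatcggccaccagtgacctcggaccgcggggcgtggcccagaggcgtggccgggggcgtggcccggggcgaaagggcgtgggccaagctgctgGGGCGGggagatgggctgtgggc
Nrp2: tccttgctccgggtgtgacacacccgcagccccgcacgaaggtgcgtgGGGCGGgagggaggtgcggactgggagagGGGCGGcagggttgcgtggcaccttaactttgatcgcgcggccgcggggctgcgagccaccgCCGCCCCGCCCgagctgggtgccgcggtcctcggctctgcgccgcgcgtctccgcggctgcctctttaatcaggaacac
Sema3e held 2 GC boxes in 250 bases at a GC content of 48%, Plxnd1 1 in 250 bases at 64.8%, and Nrp2 4 in 218 bases at 72.5%, where 2 of the matches overlap. In their full 250-base windows, 6 of the 8 members held at least 1 such match, against 32.7% of 32851 RefSeq promoter windows of that length, whose median GC content was 52.4%. Sema3a and Sema3d held none. A match describes the letters and does not show that a factor binds there.

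Over all cells, 3 of the 10 members differed by 2-fold or more toward the dorsal side (Sema3a, Sema3c and Nrp2) and 3 toward the ventral side (Sema3e, Sema3f and Plxna2). Among all 15719 genes with at least 50 UMIs, 12.8% passed 2-fold toward the dorsal side and 6.03% toward the ventral side, with a median log2 ratio of 0.12. The members' median log2 ratio was 0.10. With 10 members these counts describe the set and are not called different from the background.

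**Figure D1:**
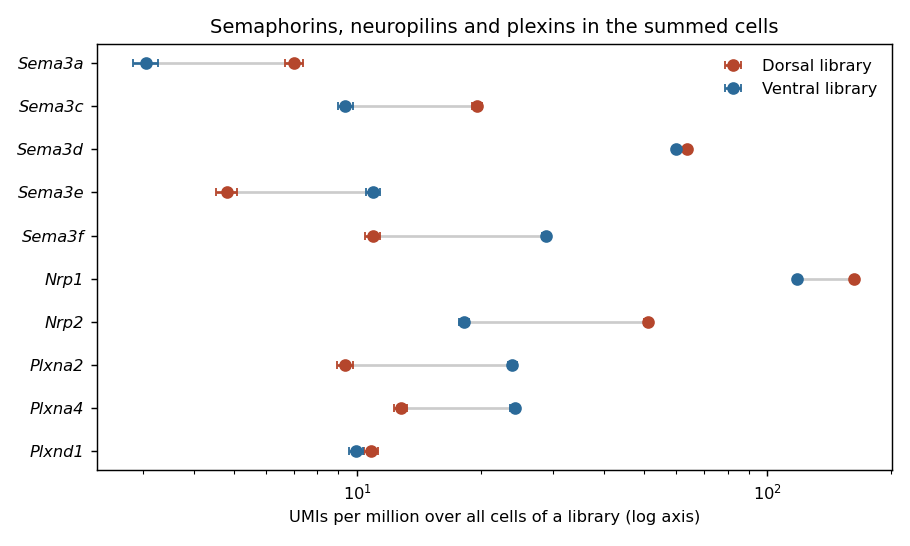
Level of each gene over all cells of the dorsal and the ventral library, in CPM on a log axis, with exact Poisson 95% intervals that are mostly narrower than the points. Sema3a, Sema3c and Nrp2 lie further right in the dorsal library, Sema3e, Sema3f, Plxna2 and Plxna4 in the ventral library, and Sema3d and Plxnd1 nearly coincide.

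Among the ligands, Sema3a, which repels sympathetic axons, was at 7.01 CPM (6.67 to 7.36) in the dorsal and 3.05 CPM (2.84 to 3.28) in the ventral library, with a log2 ratio of 1.20 (1.07 to 1.32). Sema3c, an attractant for cardiac neural crest, was at 19.6 CPM in dorsal against 9.36 CPM in ventral cells, with a log2 ratio of 1.07 (0.996 to 1.14). Both were higher dorsally. Sema3d was at 63.5 CPM (62.5 to 64.5) and 60 CPM (59.1 to 61.0), with a log2 ratio of 0.08 (0.05 to 0.12), so the pooled libraries were nearly alike. Sema3e was at 4.81 and 10.9 CPM, with a log2 ratio of -1.19 (-1.29 to -1.08). Sema3f, a ligand that prefers neuropilin 2, was at 10.9 and 28.8 CPM, with a log2 ratio of -1.40 (-1.47 to -1.34). These 2 ligands were higher ventrally.

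Among the receptors, Nrp1 was at 163 CPM in dorsal against 118 CPM in ventral cells, with a log2 ratio of 0.47 (0.44 to 0.49). Nrp2 was at 51.1 and 18.2 CPM, with a log2 ratio of 1.49 (1.44 to 1.54), the largest difference toward dorsal cells among the members. Plxna2 was at 9.34 and 23.9 CPM, with a log2 ratio of -1.35 (-1.43 to -1.28), and Plxna4 at 12.8 and 24.2 CPM, with a log2 ratio of -0.92 (-0.99 to -0.86). These 2 A-type plexins were higher ventrally, while Plxna1 (log2 0.12, 0.06 to 0.17) and Plxna3 (log2 0.75, 0.57 to 0.93), which are not among the 10 genes, were not. Plxnd1 was at 10.8 and 9.95 CPM, with a log2 ratio of 0.12 (0.04 to 0.20), close to the median of all genes.

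Pooled levels mix classes that held very different parts of each gene's UMIs. Fibroblast-like cells, 70.4% of dorsal and 68.1% of ventral cells, held 85.2% and 67.9% of Sema3d UMIs and 80.1% and 73.5% of Nrp1 UMIs. For Plxnd1 they held 34.7% and 35.4%. Endothelial-like cells, 1.10% of dorsal and 1.23% of ventral cells, held 22.9% and 25.5% of Plxnd1 UMIs, and glial-like cells held 19.6% and 20.6%. For Sema3e, glial-like cells, 4.90% of dorsal cells, held 41.6% of the dorsal UMIs and fibroblast-like cells 39.5%, while mesothelial-like cells, 10.2% of ventral cells, held 66.6% of its ventral UMIs.

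**Figure D2:**
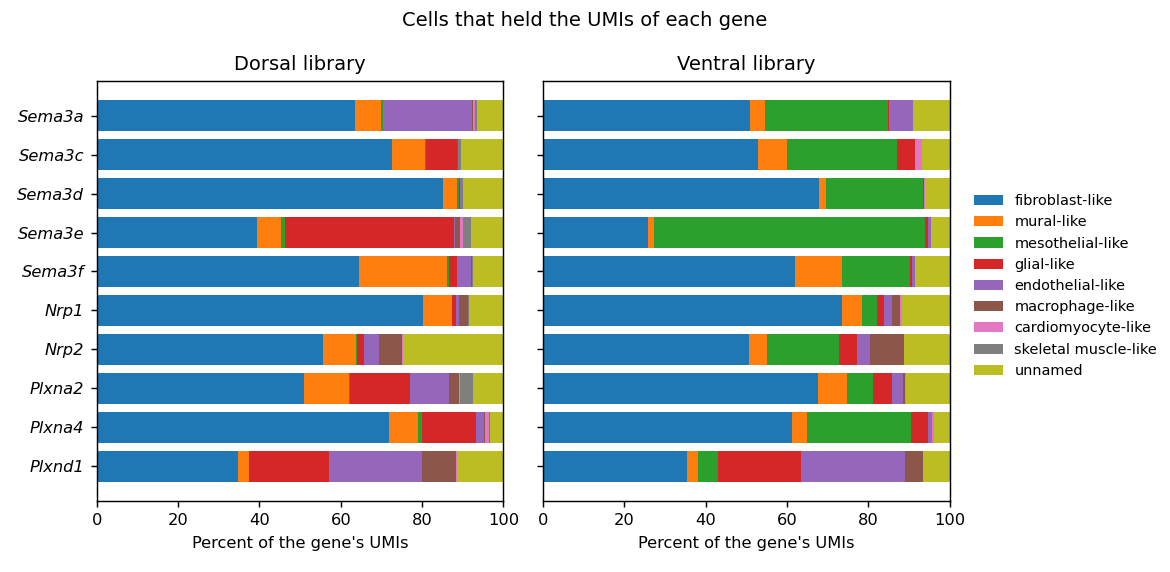
Percent of each gene's UMIs found in each cell class (stacked bars, adding up over all cells of a library), for the dorsal (left) and ventral (right) library. For Sema3e the largest stretch beside fibroblast-like cells is glial-like in the dorsal library (41.6%) and mesothelial-like in the ventral library (66.6%).

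When the mesothelial-like cells were left out, the pooled log2 ratio of Sema3e turned from -1.19 to 0.18. With each class of at least 20 cells in both libraries at its mean share, it was 0.13. That setting also left out the mesothelial-like and unnamed cells, so it is not a separate check. Mesothelial-like cells numbered 12 in the dorsal library, with 11 Sema3e UMIs or 26.5 CPM (13.2 to 47.4), against 56.8 CPM (54.2 to 59.4) in the ventral library. Among fibroblast-like cells alone the log2 ratio was -0.70 (-0.88 to -0.53), on 2.59 and 4.21 CPM.

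Sema3a was highest in endothelial-like cells in both libraries. It was at 151 CPM (135 to 167) in dorsal against 16.6 CPM (12.1 to 22.1) in ventral endothelial-like cells, with a log2 ratio of 3.19 (2.74 to 3.66). In both libraries the next class lay below, with its interval apart: 6.95 CPM in dorsal cardiomyocyte-like cells and 7.21 CPM in ventral mesothelial-like cells. After every cell was thinned to 8000 UMIs, 43.9% of dorsal and 9.16% of ventral endothelial-like cells had a Sema3a UMI. Before thinning these shares were 60.2% and 16.8%, at median depths of 19580 and 17483 UMIs. Glial-like cells gave 1 Sema3a UMI in 437 dorsal and 1 in 184 ventral cells, at median depths of 12980 and 17209 UMIs. Free RNA, read from barcodes of 10 to 100 UMIs, held it at 2.24 and 4.81 CPM.

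The endothelial-like cells of the libraries also differed in lymphatic genes, which were looked at after the Sema3a values had been seen. Prox1, the transcription factor that defines lymphatic endothelium, was at 108 CPM in dorsal against 26.6 CPM in ventral cells of the class. The hyaluronan receptor Lyve1 was at 1277 and 73.5 CPM, podoplanin (Pdpn) at 79.6 and 5.76 CPM, Mmrn1 at 218 and 21.6 CPM and the VEGF-C receptor Flt4 at 203 and 28.1 CPM. Sox17, a gene of arterial endothelium, went the other way, at 133 and 512 CPM. The general endothelial gene Pecam1 was at 442 and 424 CPM. All 5 lymphatic genes were higher dorsally, and their part in the Sema3a and Nrp2 differences between libraries was not tested.

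Cells of the class with a Prox1 UMI numbered 53 of 98 in the dorsal and 31 of 131 in the ventral library. Sema3a was at 244 CPM (217 to 273) in dorsal cells with a Prox1 UMI and 51.3 CPM (39.0 to 66.3) in those without. In ventral cells it was at 47.6 CPM (31.9 to 68.3) with and 7.84 CPM (4.57 to 12.6) without. In both libraries Sema3a was higher beside Prox1, though a cell without a Prox1 UMI may still express it. Nrp2, a receptor of lymphatic endothelium for VEGF-C, was at 266 CPM (238 to 297) with and 102 CPM (84.0 to 122) without in dorsal cells, and at 90.3 and 42.9 CPM in ventral cells. Nrp1 was at 64.7 CPM with and 131 CPM without a Prox1 UMI in dorsal cells, and at 233 and 221 CPM in ventral cells. Plxnd1 stayed between 231 and 256 CPM in all 4 sets of cells, and their intervals overlapped. Median depths were 18858 and 20244 UMIs in dorsal and 17146 and 17777 UMIs in ventral cells with and without Prox1.

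**Figure D3:**
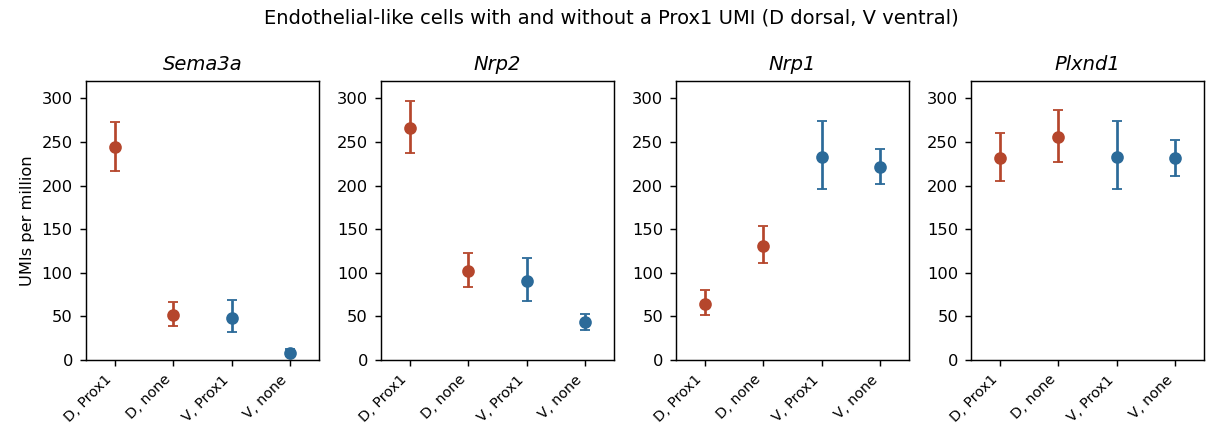
Level in CPM of Sema3a, Nrp2, Nrp1 and Plxnd1 in endothelial-like cells of the dorsal (D) and ventral (V) library, split by whether the cell had a Prox1 UMI, with exact Poisson 95% intervals. Sema3a and Nrp2 are higher with Prox1 in both libraries, Nrp1 is lower with Prox1 in the dorsal library, and Plxnd1 lies between 231 and 256 CPM throughout.

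Sema3c had its highest dorsal level in glial-like cells, at 50.6 CPM (45.4 to 56.3), and was at 30.8 CPM (25.3 to 37.2) in ventral ones. Endothelial-like cells were close to empty, with 3 dorsal UMIs and 0 ventral UMIs, and the floor of 3 UMIs in the ventral cells of the class corresponds to 1.08 CPM. Fibroblast-like cells were at 19.5 CPM in dorsal against 7.35 CPM in ventral cells. Ventral cardiomyocyte-like cells read 66.5 CPM, but 33 of their 42 Sema3c UMIs were in 1 cell. Without that cell the level was 15.0 CPM, against 3.97 CPM in dorsal cardiomyocyte-like cells, so no level is claimed for this class. The cardiomyocyte-like cells of the libraries also differed in chamber genes: the atrial peptide gene Nppa was at 85562 CPM in dorsal against 8725 CPM in ventral cells, and the ventricular light chain Myl2 at 49.7 and 5278 CPM.

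Sema3d, highest in fibroblast-like cells among dorsal classes of at least 20 cells, was at 73.9 CPM (72.6 to 75.2) there. In the ventral library it was at 112 CPM (108 to 115) in mesothelial-like cells and 60.5 CPM (59.3 to 61.7) in fibroblast-like cells. The 12 dorsal mesothelial-like cells held 85 Sema3d UMIs, or 205 CPM (164 to 253). After thinning, 54.4% of ventral mesothelial-like cells had a Sema3d UMI, against 3.30% of ventral macrophage-like cells, with median depths of 27104 and 24262 UMIs. Before thinning the shares were 86.8% and 4.4%.

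Sema3e split sharply by class. It was at 67.8 CPM (61.7 to 74.3) in dorsal glial-like cells and 56.8 CPM (54.2 to 59.4) in ventral mesothelial-like cells, and from 0 to 8.94 CPM in the other classes of at least 20 cells in both libraries, except dorsal skeletal muscle-like cells at 15.9 CPM. Ventral glial-like cells were at 6.85 CPM (4.39 to 10.2), with a log2 ratio of dorsal to ventral of 3.31 (2.72 to 3.97). Free RNA held Sema3e at 2.24 CPM in the dorsal and 11.8 CPM (8.72 to 15.6) in the ventral library. The ventral glial-like level, on 24 UMIs, was therefore not above free RNA. The glial-like class joins cluster 13, with Gap43 and Ngfr among its leading genes and 399 dorsal and 48 ventral cells, and cluster 20, with Ngfr among its leading genes and 38 and 136 cells. In cluster 13 Sema3e was at 74.7 CPM in dorsal against 10.9 CPM in ventral cells, with a log2 ratio of 2.77 (1.78 to 3.996). In cluster 20, where 27.0% of cells had a high doublet score, it was at 29.3 and 5.77 CPM, with a log2 ratio of 2.35 (1.43 to 3.32). After thinning, 35.0% of dorsal and 5.43% of ventral glial-like cells had a Sema3e UMI (46.2% and 10.9% before), against 2.04% and 4.58% of endothelial-like cells (2.04% and 8.40% before).

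Sema3f was highest in mural-like cells of the ventral library, at 46.3 CPM (43.2 to 49.5), followed by mesothelial-like cells at 37.5 CPM (35.5 to 39.7). This mural level depended on the clustering and was 36.8 CPM at Leiden resolution 0.5 and 35.7 CPM with 4000 variable genes. In the dorsal library endothelial-like cells at 35.5 CPM and mural-like cells at 34.4 CPM came first, with overlapping intervals. Fibroblast-like cells were at 9.59 CPM in dorsal against 26.5 CPM in ventral cells, with a log2 ratio of -1.46 (-1.55 to -1.38). Ligand UMIs were rare in macrophage-like cells: none of the 5 semaphorins passed 2.64 CPM there in either library.

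**Figure D4:**
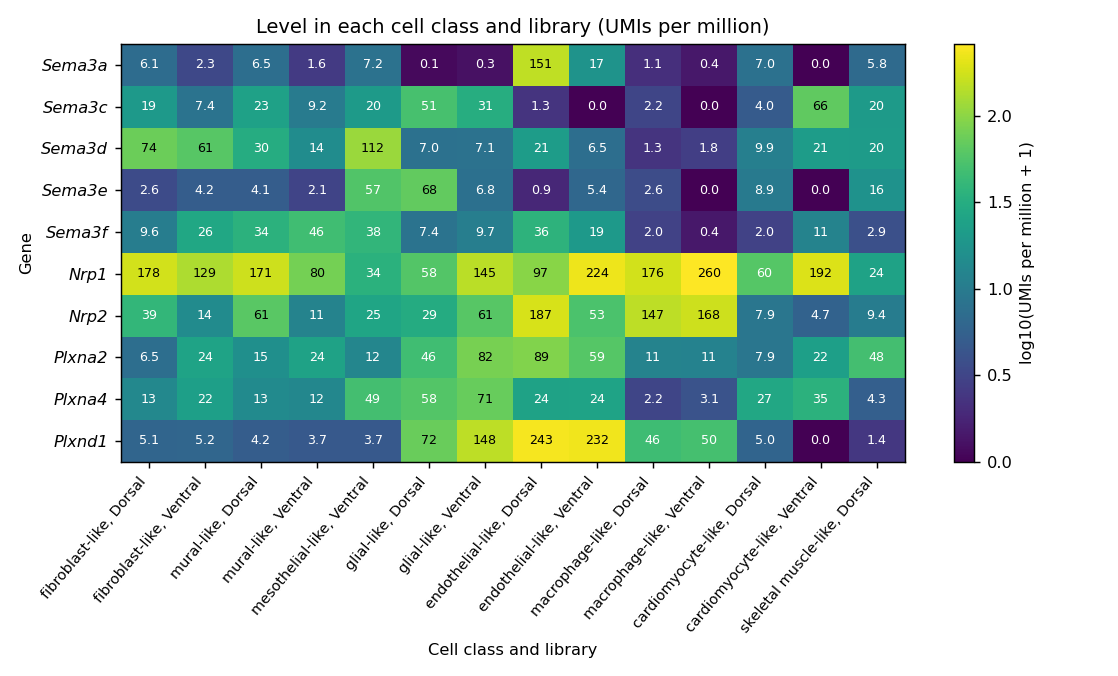
Level in CPM of the 10 genes (rows) in each cell class and library with at least 20 cells (columns). The number in each field is the level and the colour its log10 value after adding 1. Plxnd1 is above 45 CPM only in the glial-, endothelial- and macrophage-like columns, and Sema3a above 10 CPM only in the endothelial-like columns.

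Nrp1, the co-receptor shared by semaphorins and VEGF-A, was measured in every class. In the dorsal library fibroblast-like cells (178 CPM), macrophage-like cells (176 CPM) and mural-like cells (171 CPM) were not apart by their intervals, and endothelial-like cells followed at 96.7 CPM. In the ventral library macrophage-like cells at 260 CPM and endothelial-like cells at 224 CPM headed the order with overlapping intervals. The lowest ventral class was mesothelial, at 33.9 CPM (31.9 to 36.0), and the lowest dorsal class was skeletal muscle, at 23.8 CPM (16.4 to 33.5). Glial-like cells were at 58.2 CPM in dorsal against 145 CPM in ventral cells. By cluster, cluster 20 was at 181 CPM in dorsal against 161 CPM in ventral cells, with a log2 ratio of 0.17 (-0.09 to 0.42), and cluster 13 was at 36.3 against 84.6 CPM, with a log2 ratio of -1.22 (-1.64 to -0.79).

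Nrp2 was highest in dorsal endothelial-like cells, at 187 CPM (169 to 205), followed by dorsal macrophage-like cells at 147 CPM (137 to 159). In the ventral library macrophage-like cells were highest, at 168 CPM (152 to 186), with glial-like cells at 60.8 CPM and endothelial-like cells at 53.3 CPM. Among macrophage-like cells thinned to 8000 UMIs, 63.3% of dorsal and 67.0% of ventral cells had an Nrp2 UMI (93.3% and 89.0% before), and 66.7% and 79.1% an Nrp1 UMI (95% and 95.6% before). In cardiomyocyte-like cells, the class with the lowest Nrp2 level in both libraries (7.95 and 4.75 CPM), the Nrp2 shares were 5.26% and 10.3% (15.8% and 10.3% before), at median depths of 25462 and 18266 UMIs. Both co-receptors were found together in 43.3% of dorsal macrophage-like cells, where the product of their shares is 42.2%, and in 52.7% of the ventral ones, where the product is 53%.

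Plxna2, the plexin of cardiac neural crest, was highest in dorsal endothelial-like cells, at 89.4 CPM (77.7 to 102), and in ventral glial-like cells, at 81.9 CPM (72.7 to 91.9). Dorsal glial-like cells were at 46.5 CPM and ventral endothelial-like cells at 59.1 CPM. Dorsal skeletal muscle-like cells, at 48.4 CPM, lay beside the dorsal glial-like cells with overlapping intervals. Fibroblast-like cells were at 6.51 CPM in dorsal against 24.0 CPM in ventral cells, with a log2 ratio of -1.88 (-1.98 to -1.78). Plxna4, a plexin of Sema3A signalling in axons, was highest in glial-like cells in both libraries, at 57.7 CPM (52.2 to 63.8) and 70.7 CPM (62.2 to 80.1). Ventral mesothelial-like cells were next at 48.5 CPM (46.1 to 50.97), while macrophage-like cells were lowest at 2.20 and 3.13 CPM.

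Plxnd1, the endothelial semaphorin receptor, was highest in endothelial-like cells, at 243 CPM (223 to 264) in dorsal against 232 CPM (214 to 250) in ventral cells, with a log2 ratio of 0.07 (-0.10 to 0.23). Glial-like cells were next, at 72.0 CPM in dorsal against 148 CPM in ventral cells, and macrophage-like cells followed at 45.7 and 50.04 CPM. The order of these 3 classes was the same in both libraries, with every interval apart. All other named classes were between 0 and 5.24 CPM. The ventral excess in glial-like cells was present in cluster 13, at 73.1 and 154 CPM, and in cluster 20, at 65.5 and 146 CPM. After thinning, 69.4% of dorsal and 71.8% of ventral endothelial-like cells had a Plxnd1 UMI (88.8% and 81.7% before), against 4.02% and 3.08% of mural-like cells (7.13% and 5.96% before, at median depths of 15780 and 15690 UMIs). The direct ligand and receptor Sema3e and Plxnd1 met in single dorsal glial-like cells: 55 of 437 cells had a UMI of both after thinning, or 12.6%, where the product of the shares is 13.7%.

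Of the 10 members, 3 had the same highest class in both libraries among classes of at least 20 cells: Sema3a and Plxnd1 in endothelial-like cells and Plxna4 in glial-like cells. The count was 4 at Leiden resolution 0.5 and with likely doublets left out. Sema3c missed it by the 1 ventral cardiomyocyte-like cell described above, without which that class (15.0 CPM) lay below ventral glial-like cells (30.8 CPM). Mesothelial-like cells reached 20 cells only in the ventral library and skeletal muscle-like cells only in the dorsal one. Neither class could therefore be the highest in both. How many of all genes share a highest class was not computed. In glial-like cells, 1 of the 9 members with at least 50 UMIs passed 2-fold toward the dorsal side (Sema3e) and 3 toward the ventral side (Nrp1, Nrp2 and Plxnd1). The background was 4.8% of 9604 genes for the dorsal and 2.86% for the ventral direction. The mix of clusters 13 and 20 differed between the libraries, and its part in these counts was not tested. Within cluster 13 alone Nrp2 was at 28.4 and 66.8 CPM, and within cluster 20 at 35.2 and 59.1 CPM. The log2 ratios of Nrp1, Nrp2 and Plxnd1 were -1.22, -1.23 and -1.08 in cluster 13. In cluster 20 they were 0.17 (-0.085 to 0.42), -0.75 and -1.16. Of these 3 members, only Plxnd1 passed 2-fold in both clusters.

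In fibroblast-like cells, 3 members passed 2-fold toward the dorsal side (Sema3a, Sema3c and Nrp2), where 12.6% of 14628 genes were, and 2 in ventral cells (Sema3f and Plxna2), where 6.05% were. These cells came from different clusters. Clusters 2, 3, 5, 6 and 15 held nearly all of the dorsal cells and clusters 0, 1, 4 and 8 the ventral ones, so domain and library cannot be told apart from kind of fibroblast. In mural-like cells, 5 members passed 2-fold dorsally (Sema3a, Sema3c, Sema3d, Nrp1 and Nrp2), against 10% of 11393 genes, and 0 ventrally, against 4.33%. Here the dorsal cells came from clusters 10, 21 and 25 and the ventral ones from clusters 9 and 14. Nrp1 had a mural-like log2 ratio of 1.09 (1.001 to 1.19), and cluster 25, 75 of the 870 dorsal cells, was at 678 CPM.

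Levels also differed among clusters of the same class and library. Among dorsal fibroblast-like clusters, Sema3c ran from 5.04 CPM in cluster 5 (led by Fbln1, Sele and Cxcl2) to 93.5 CPM in cluster 15 (Thbs4, Grem1 and Chil1), which also had the highest Nrp1 of them, 387 CPM. Nrp2 was at 113 CPM in cluster 3 (Gdf10, Cdo1 and Barx1) and 13.8 CPM in cluster 5. Sema3d was at 109 CPM in cluster 3 and 95.6 CPM in cluster 6 (Saa3, Hpgd and Adgrd1). Cluster 6 combined this with 36.2 CPM of Plxna4 and the lowest Nrp1 of these clusters, 42.6 CPM. Among ventral fibroblast-like clusters, cluster 4, led by Fmod, Scx and Cd34, had the lowest Sema3d at 10.3 CPM and the highest Sema3f and Plxna2, at 42.4 and 41.3 CPM.

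Among mural-like clusters, cluster 21, led by Des, Chrm2 and Actg2, had 231 CPM of Nrp2, 51.9 CPM of Sema3c and 16.3 CPM of Sema3a. The other dorsal mural-like clusters had 19.2 and 34.5 CPM of Nrp2. The pericyte-marked cluster 25 had the highest Nrp1 level of all dorsal clusters, 678 CPM. The unnamed dorsal cluster 12, led by Col10a1, Mmp3 and Igf2, had the highest Nrp2 level of all dorsal clusters, 249 CPM. In the ventral library Sema3f was highest in the mural-like cluster 9, led by Sost, Igfbp2 and Acan, at 51.4 CPM. Clusters from 1 library may reflect that library and not a kind of cell.

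**Figure D5:**
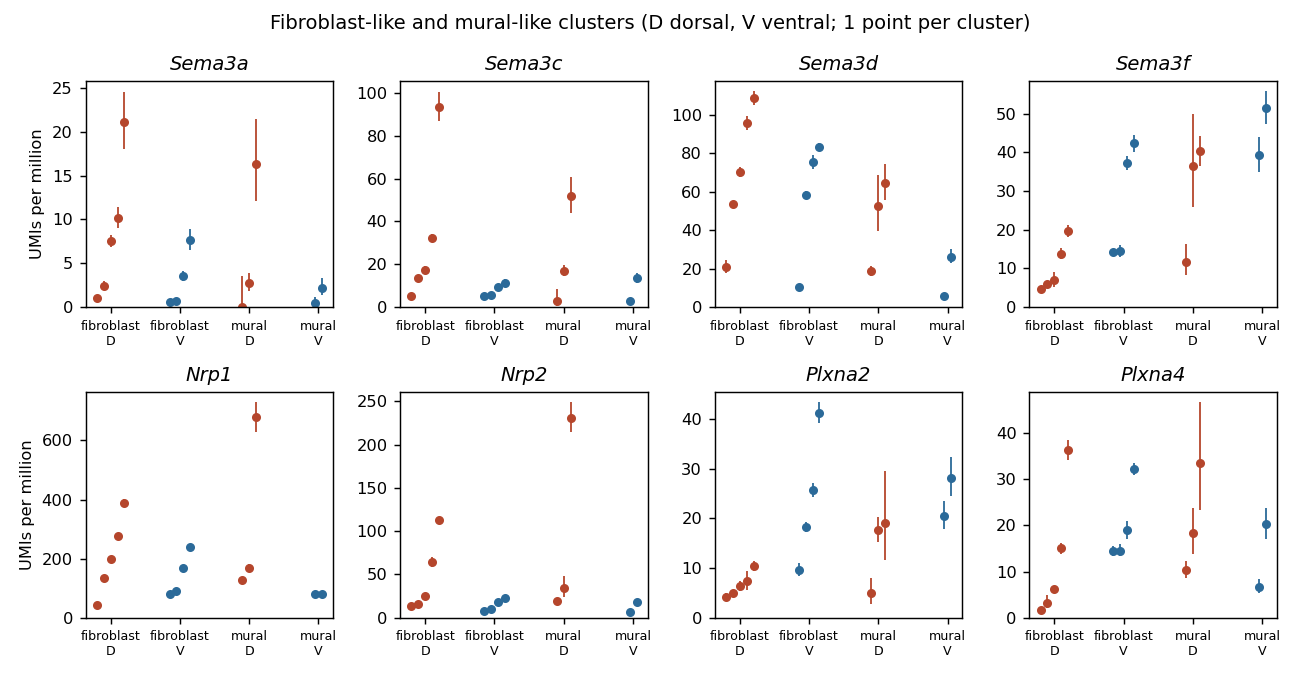
Level in CPM of 8 of the genes in each fibroblast-like and mural-like cluster with at least 20 cells in a library, sorted by level within each column, with exact Poisson 95% intervals. Dorsal clusters reach 387 CPM of Nrp1 among fibroblast-like and 678 CPM among mural-like clusters, and 1 mural-like cluster stands at 231 CPM of Nrp2.

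Genes whose levels followed the members most closely were named by Pearson correlation of log2(CPM + 1) over 14 profiles, each a class in a library with at least 20 cells. The profiles share libraries and depth, and r is a description. Over 9051 genes reaching 20 CPM in a profile, the closest to Plxnd1 were Ccz1 (r = 0.96), Ppp4r1 (0.95) and Ednrb (0.94), and the closest to Sema3f were Rhoj (0.95), Cd200 (0.93) and Foxc2 (0.93). Sema3a went with Abhd6 (0.94) and Tfpi2 (0.91), Sema3d with Cdh11 (0.92) and Sema3c with Spry2 (0.88). Nrp2 went with Slc17a5 (0.95), Plxna4 with Trove2 (0.95) and Plxna2 with Prkaa1 (0.90). Sema3e and Nrp1 had looser matches, led by Crabp2 (0.83) and Mbnl1 (0.82). Among the members themselves, the closest pair was Nrp2 and Plxnd1 (0.77) and the most opposed was Sema3e and Nrp1 (-0.72).

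Of 21 other semaphorin and plexin genes, 7 passed 2-fold toward the dorsal side and 0 toward the ventral side, with a median log2 ratio of 0.61. The 3 with the largest ratios were Plxnb3 (1.998), Sema4f (1.97) and Plxnc1 (1.94), and the lowest was Sema3g (-0.67). Plxnb3 and Sema4f had their highest levels in dorsal glial-like cells, at 20.3 and 71.8 CPM, and Plxnc1 in dorsal macrophage-like cells, at 45.7 CPM. Of 13 other neuropilin ligands and co-receptors, 4 were higher dorsally and 1 ventrally. The cell adhesion genes Chl1 and Nrcam had log2 ratios of 4.95 and 2.13 and L1cam, a partner of neuropilin 1 in axons, 1.33. All 3 were highest in dorsal glial-like cells, a class of 4.90% of dorsal and 1.73% of ventral cells, and the 9 glial markers summed to 82.7 and 33.2 CPM in the libraries. The part of this in the 3 ratios was not tested. The fourth gene was Vegfa, at 52.2 and 22.0 CPM. The ventral one was Pgf, a VEGF family ligand, with a log2 ratio of -1.24.

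Of 27 genes of semaphorin signal transduction, 1 was at least 2-fold higher dorsally, the plexin-binding GTPase Rnd1 (114 and 44.1 CPM, log2 1.37). The 3 higher ventrally were Mical2, an actin-oxidising enzyme of plexin signalling (23.0 and 85.6 CPM, log2 -1.89), and the collapsin response mediators Dpysl5 (-1.22) and Crmp1 (-1.08). The median over the 27 was -0.14. Of 19 measured genes of other guidance systems, 3 were higher dorsally, namely Slit1 (4.43), Unc5c (2.40) and Epha4 (1.73), and 2 ventrally, namely Ntn4 (-2.21) and Unc5b (-1.62), with a median of 0.31. Read against 12.8% and 6.03% of all genes, these counts describe each list.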

How the data were processed

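The deposited matrices hold raw UMI counts per gene and barcode. Per the submitters' processing notes they come from Cell Ranger 3.0.2 and mm10. The annotation release is not given in the sources used here. Both matrices list 6794880 barcodes, so cells were taken as barcodes with at least 8000 UMIs and at most 20% mitochondrial UMIs. These held 229117951 dorsal and 253103590 ventral UMIs, or 92.8% and 95.6% of each matrix. The smallest classes have the widest intervals.

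Cells of both libraries were clustered together without integration, on 2000 variable genes and 30 principal components (15 neighbours, Leiden resolution 1), with Sema, Nrp and Plxn genes left out (numpy 2.4.6, scipy 1.17.1, leidenalg 0.10.2). A cluster was named from a marker list when 3 or more markers, making up 50% of that list, occurred in 25% of its cells and 2-fold above other cells, with 5 CPM added. Otherwise it was fibroblast-like when 5 fibroblast markers were in 50% of its cells, unless 3 or more cycling markers stood among its 10 leading genes. A cluster stayed unnamed where another cell type list had more markers among these 10, which left out clusters 12, 17 and 23, while clusters 11 and 22 were left out by cycling markers. The clusters were known when this naming rule was written, and names therefore end in "-like". Doublets were kept. The 637 dorsal and 907 ventral barcodes with the highest simulated-doublet scores were left out in an alternative, and clusters with over 50% of them stayed unnamed.

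UMIs were summed per class and library and given as CPM. Thinned shares drew 8000 UMIs from each cell. A count of 0 was given a floor of 3 UMIs. With 1 library per domain no test was made. All members were described. List genes were named by largest ratio, up to 3 in each direction among genes with 50 UMIs, and clusters by their 3 leading genes, some of which are not reported here. The members and lists were chosen with earlier results of these data known. Of the gene IDs, 28339 of 28692 matched GENCODE M21. TMM factors came from edgeR 4.0.16. Interval code was checked on simulated counts.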

Additional observations from a re-analysis of the deposited data

Results flagged for a closer look

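In 9 cases a class lay above all other cells of its library in 1 domain and below them in the other, with intervals apart from 0 in both. With 1 library per domain the difference between the domains was not tested. How many of all genes pass the same rule was not computed, so the 9 cases are not read as a trait of the members. The values are log2 ratios of the class to all other cells, dorsal then ventral. Sema3e in glial-like cells was at 4.55 and -0.68. Among ventral classes of at least 20 cells, only mesothelial-like cells (56.8 CPM) were above the glial-like ones (6.85 CPM). They held 66.6% of the ventral Sema3e UMIs, and their part in the ventral ratio was not tested. The ventral glial-like level was also not above free RNA (11.8 CPM). Nrp1 was at -1.51 and 0.30 in glial-like cells, at -0.76 and 0.94 in endothelial-like cells, at -1.46 and 0.70 in cardiomyocyte-like cells and at 0.07 and -0.60 in mural-like cells. Cells outside the glial-like class had 166 and 118 CPM of Nrp1. Cluster 13 lay below these in both libraries (36.3 and 84.6 CPM), and cluster 20 did not (181 and 161 CPM). The part of this cluster mix was not tested. Among dorsal mural-like cells, the 75 of cluster 25 were at 678 CPM of Nrp1, against 162 CPM in cells outside the class. Nrp2 was at -0.81 and 1.79 in glial-like cells and at 0.28 and -0.77 in mural-like cells. Of the dorsal mural-like clusters with at least 20 cells, only cluster 21 was above the 50.3 CPM of Nrp2 in the other dorsal cells. Sema3f in endothelial-like cells was at 1.74 and -0.57, against other cells at 10.6 and 28.9 CPM. Sema3c in cardiomyocyte-like cells was at -2.31 and 2.85, and 33 of the 42 ventral UMIs behind it came from 1 cell. Nrp1 made up 4 of the 9 cases, and in 3 of these 4 the dorsal library had the lower ratio.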

How the results depend on the processing

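The counts of members past 2-fold toward the dorsal (3) and ventral (3) side stayed within 1.5 times in 19 of 20 alternatives. The exception was a minimum of 20 CPM, which left 1 dorsal member, since fewer genes were tested. Sema3e turned to 0.13 with each class at its mean share and to 0.18 without mesothelial-like cells, an alternative chosen after seeing the data. Plxnd1, near 0 throughout, turned to -0.24 and -0.004 in the same alternatives. The other 8 members kept their direction in all 8 alternatives, with log2 ranges such as 0.97 to 1.73 for Sema3a and 1.31 to 1.61 for Nrp2. Without endothelial-, glial- and macrophage-like cells, also added later, Sema3a fell under 2-fold (0.97) and Plxna4 passed it (-1.05). Median log2 ratios of all genes stayed between 0.01 and 0.15. Of 115 class levels recomputed, 9 left their interval and none moved by over 1.5 times. Thinning set the shares, and 41 of 46 left their interval at another depth. Classes under 50 cells limit what depth can show. No paired analysis was possible because each domain has 1 library.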
